A study of Mus musculus with 4 samples.

Results

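The oligoadenylate synthetase family was followed through every probe whose platform gene symbol is Oas1a, Oas1b, Oas1g, Oas2, Oas3, Oasl1 or Oasl2, which gave 15 probes for 7 genes among the 25697 probes of each array. Oas1g had 4 probes, Oasl1 3, Oas1b, Oas3 and Oasl2 2 each, and Oas1a and Oas2 1 each. RNA of intestinal epithelial cells was measured on 4 single-colour Illumina bead arrays, 2 for each of a pair of mouse groups. All mice were C57BL/6 and carried floxed Csnk1a1, which encodes casein kinase 1 alpha, with Vil1-Cre-ERT2, a Cre that the villin promoter limits to gut epithelium and that tamoxifen activates. A dose of 120 mg/kg tamoxifen was given on each of 2 days in a row, and epithelium was collected 5 days later. One group is labelled Csnk1a1_delta_gut Ifnar1+/+ (1 of its labels writes Csnk1a_delta_gut), the other Csnk1a1_delta_gut Ifnar1-/-. The arrays titled WT therefore come from Csnk1a1-deleted gut too, and no array of gut with intact Csnk1a1 was analysed here. The Ifnar1-/- allele came from a crossed line, with no cell type given for its loss. Age is given only for genotyping, at 4 weeks, and no label ties the paired samples of a group to different animals, so the p-values below speak only for the variation among these 4 samples, part or all of which may be technical.

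Oligoadenylate synthetases are cytosolic enzymes that are switched on by double-stranded RNA, as made during viral replication. They join ATP into short chains of adenosines linked in an unusual way, called 2-5A, which serve as a second messenger of the antiviral response. Their genes are classical targets of type I interferons: the receptor built from Ifnar1 and Ifnar2 activates transcription factors, Stat2 and Irf9 among them, that bind interferon-stimulated response elements in promoters. Mice have a large set of Oas1 genes next to Oas2 and Oas3, and a separate pair of synthetase-like genes, Oasl1 and Oasl2, whose proteins end in ubiquitin-like domains. Both groups of genes lie on chromosome 5.

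The promoters are shown because the response element is the link between the receptor and these genes. RefSeq sequences were at hand for 5 of the 7 members, Oas1a, Oas1g, Oas3, Oasl1 and Oasl2. The 250 bases before the annotated start were searched on both strands for GAAA followed by 2 bases of any kind and GAAA again, the core of the response element. The motif was present in 3 of the 5, and their sequences follow from 5′ to 3′ in build GRCm38.p6, all on the minus strand of chromosome 5, with the matches in capitals.
Oas1a (chr5:120907526-120907775): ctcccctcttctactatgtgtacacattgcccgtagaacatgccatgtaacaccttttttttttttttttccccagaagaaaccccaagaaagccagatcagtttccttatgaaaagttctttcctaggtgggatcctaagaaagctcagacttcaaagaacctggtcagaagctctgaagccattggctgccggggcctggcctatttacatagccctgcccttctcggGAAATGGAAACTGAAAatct
Oas1g (chr5:120887614-120887863): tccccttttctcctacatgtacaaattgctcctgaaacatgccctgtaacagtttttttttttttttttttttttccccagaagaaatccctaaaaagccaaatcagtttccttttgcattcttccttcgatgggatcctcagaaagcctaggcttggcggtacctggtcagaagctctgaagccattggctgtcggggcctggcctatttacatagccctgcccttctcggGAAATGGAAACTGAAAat
Oas3 (chr5:120777660-120777909): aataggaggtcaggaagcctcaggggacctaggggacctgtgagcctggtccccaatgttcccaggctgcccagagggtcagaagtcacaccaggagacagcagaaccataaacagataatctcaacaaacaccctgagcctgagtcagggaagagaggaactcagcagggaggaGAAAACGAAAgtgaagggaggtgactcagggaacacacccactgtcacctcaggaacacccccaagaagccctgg
In Oas1a and Oas1g the capitals hold a pair of overlapping matches, GAAATGGAAA and GAAACTGAAA. They run from 20 to 5 bases before the start in Oas1a and from 18 to 3 bases before it in Oas1g. The Oas3 match, GAAAACGAAA, lies 75 to 66 bases before the start. The Oas1a and Oas1g stretches were 83.1% identical over an alignment of 261 columns, against at most 51.6% for any other pair of the 5. The motif was found in 2.98% of all 32851 RefSeq promoter stretches of the same length, and in 6 of 12 of the other interferon-stimulated genes measured here that had one. The 250 bases before Oasl1 and Oasl2 held none. Over the 6901 measured genes outside the family that had a promoter sequence, the median log2 difference between the groups was 0.01 in the 219 with the motif and 0.03 in the others.

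Signals underwent background correction and quantile normalization before taking log2, and all differences are Ifnar1-/- minus Ifnar1+/+. A probe was called above background on an array at a detection p under 0.05, and was kept for testing if this held on at least 2 of the 4 arrays, which left 11884 probes of the series. The filter kept 9 of the 15 family probes, covering Oas1g, Oas2, Oas3, Oasl1 and Oasl2, and left out 6, among them the only Oas1a probe and both Oas1b probes. Of the 9, those for Oas2 and for Oas3 (its probe 1) passed only through the Ifnar1+/+ arrays, so that any signal there had to come with a lower Ifnar1-/- value. The other 7 were above background on at least 1 Ifnar1-/- array. Probes of a gene are numbered by falling mean intensity. Intensities of different probes depend on the probe, so each is compared only with itself across arrays.

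**Figure D1:**
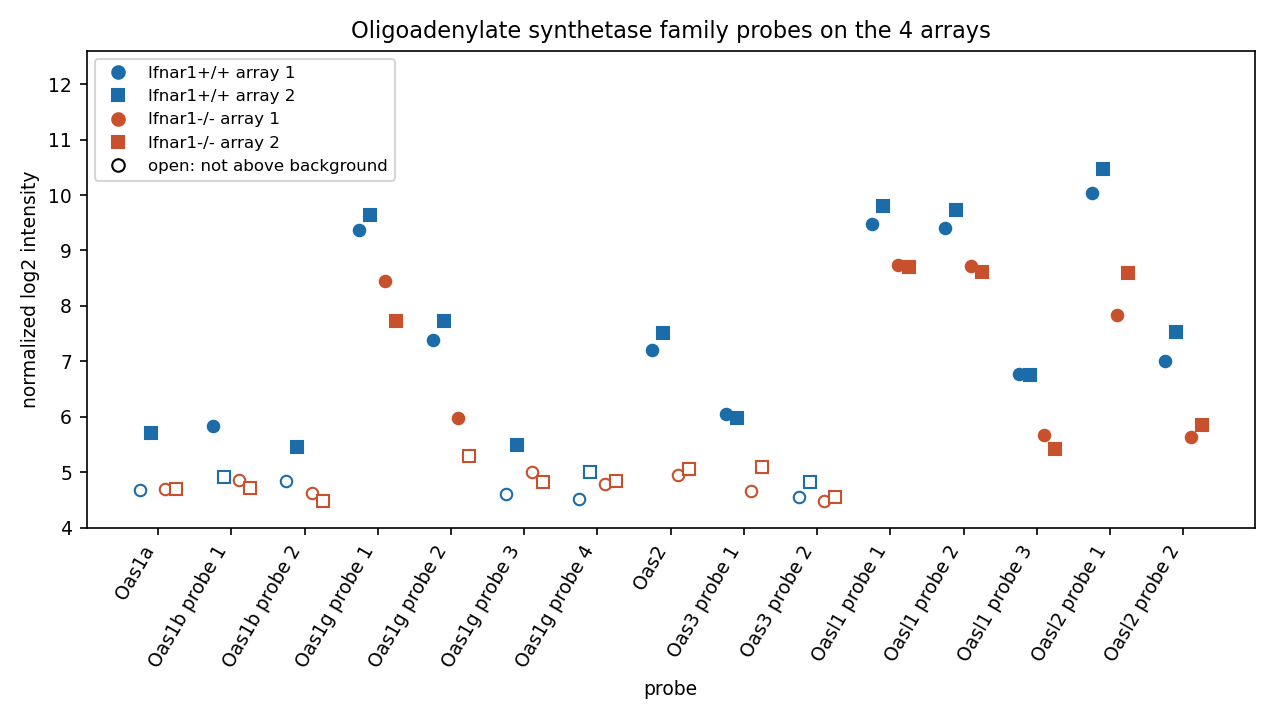
Normalized log2 intensity (y axis) of each of the 15 family probes (x axis) on the 4 arrays, with blue for Ifnar1+/+, orange for Ifnar1-/-, circles for array 1 and squares for array 2; open marks are not above background. For the 9 probes kept, both Ifnar1-/- marks lie under both Ifnar1+/+ marks, while 6 probes stay near the lowest signals on most arrays.

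Over all 15 probes, 14 had a lower mean on the Ifnar1-/- arrays, and in 11 both Ifnar1-/- values lay under both Ifnar1+/+ values. Over all 25697 probes of the arrays the groups were separated in this direction for 18.2%, and in the opposite direction for 19.7%. No family probe was separated in the opposite direction, and 4 overlapped. At the level of single probes nothing passed: limma called 0% of the 11884 kept probes lower and 0% higher at an adjusted p under 0.05, and the adjusted p of the 9 family probes ran from 0.42 to 0.49. Unadjusted p-values of the 9 ran from 3.5e-05 to 0.0083, in a table where 5.24% of kept probes had an unadjusted p under 0.05 in the lower direction and 4.12% in the higher one. As the filter itself bears on which family probes were tested, these p-values are given as a description. The values below are therefore levels and differences that no adjusted test called.

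Oas2 encodes a middle-sized synthetase built of a pair of synthetase units. Its probe had normalized log2 intensities of 7.21 and 7.52 on the Ifnar1+/+ arrays and of 4.95 and 5.06 on the Ifnar1-/- arrays. The Ifnar1-/- values were not above background, with detection p-values of 0.158 and 0.139. Taking the lowest signal above background as the Ifnar1-/- level, the groups were apart by at least 4.23-fold after this background correction. In raw intensity, without background correction, the Ifnar1+/+ mean was 1.77-fold the Ifnar1-/- mean. The measured difference was -2.36 ± 0.24 (SE, n = 2 per group), with a 95% interval of -2.93 to -1.79. Its limma p was 3.5e-05 (adjusted p = 0.42). Because the probe was kept only through the Ifnar1+/+ arrays, its p is a description and supports nothing about the family. The same holds for the adjusted p of 0.018 without Ifnar1+/+ array 1 and of 0.042 without Ifnar1+/+ array 2, where among the settings tried a family probe crossed the threshold.

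Oas3 encodes the large synthetase, made of several synthetase units in a row. Its probe 1 lay at 6.05 and 5.98 on the Ifnar1+/+ arrays and at 4.66 and 5.11 on the Ifnar1-/- arrays, where it was again not above background. The groups were apart by at least 1.66-fold after background correction, against 1.21-fold between the means of raw intensity. The measured log2 difference was -1.13 ± 0.25 (SE). Oas3 probe 2 was not above background on any array, with values from 4.48 to 4.82, so it neither repeats nor contradicts probe 1.

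Among the Oas1 genes, signal came from Oas1g, which encodes a small synthetase able to make 2-5A. Oas1g probe 1 was above background on every array, at 9.37 and 9.64 in Ifnar1+/+ and at 8.46 and 7.72 in Ifnar1-/-. In raw intensity these were 783.9 and 777.5 against 523.9 and 331.7. The difference was -1.41 ± 0.31 (log2, SE), or 2.66-fold lower. Oas1g probe 2 lay at 7.38 and 7.73 against 5.98 and 5.29, and only the first of these Ifnar1-/- values was above background. Its difference was -1.92 ± 0.31, so both detected Oas1g probes were lower on each Ifnar1-/- array, and lowest on array 2. The other Oas1g probes were close to background: probe 3 was above it on Ifnar1+/+ array 2 alone, at 5.49, and probe 4 on no array. The 4 probes carry the same transcript accession in the platform annotation, and their sequences were not used here.

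Oas1a, which encodes a close relative of the Oas1g enzyme, gave no usable level. Its probe was above background on 1 of 4 arrays, Ifnar1+/+ array 2, at 5.70, and lay between 4.69 and 4.71 on the other arrays. The Oas1b gene is known from mouse genetics as a determinant of resistance to flaviviruses, and laboratory strains such as C57BL/6 carry a premature stop codon in it. RefSeq lists it as a transcribed pseudogene. Oas1b probe 1 was above background on Ifnar1+/+ array 1 alone (5.85) and probe 2 on Ifnar1+/+ array 2 alone (5.46). All Ifnar1-/- values of the pair lay between 4.49 and 4.86. Over the 6 probes left out by the filter there were 4 detections in 12 measurements on the Ifnar1+/+ arrays and 0 in 12 on the Ifnar1-/- arrays, and no probe was detected on more than 1 array. Copies of the Oas1 genes resemble one another, so which copy a probe reports is uncertain.

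Oasl2 encodes a synthetase-like protein that in mice keeps synthetase activity. Its probe 1 lay at 10.03 and 10.48 on the Ifnar1+/+ arrays and at 7.84 and 8.59 on the Ifnar1-/- arrays, all above background. The raw intensities were 1189.5 and 1313.8 against 385.8 and 503.6. The difference of -2.04 ± 0.33 (log2, SE; 4.10-fold lower) had a 95% interval of -2.82 to -1.25. Oasl2 probe 2 gave 7.02 and 7.52 against 5.63 and 5.86, a difference of -1.52 ± 0.27. Both probes were above background on all 4 arrays, and for both the Ifnar1-/- value was lowest on array 1.

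Oasl1 encodes a synthetase-like protein without synthetase activity, known in mice to hold back translation of the Irf7 messenger RNA. Its probe 1 had values of 9.48 and 9.81 in Ifnar1+/+ and of 8.74 and 8.69 in Ifnar1-/-. Its probe 2 had values of 9.40 and 9.73 against 8.72 and 8.61. The differences of these brighter probes were -0.93 ± 0.24 and -0.90 ± 0.24 (log2, SE), so the pair gave nearly the same value. Probe 3 of the gene lay at 6.77 and 6.76 against 5.68 and 5.42, a difference of -1.22 ± 0.23. All Oasl1 probes were above background on every array, with a fold between 1.86 and 2.33. The 95% interval of Oasl1 probe 1 was -1.50 to -0.36, and the gap to Oas2 or Oasl2 was not tested.

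**Figure D2:**
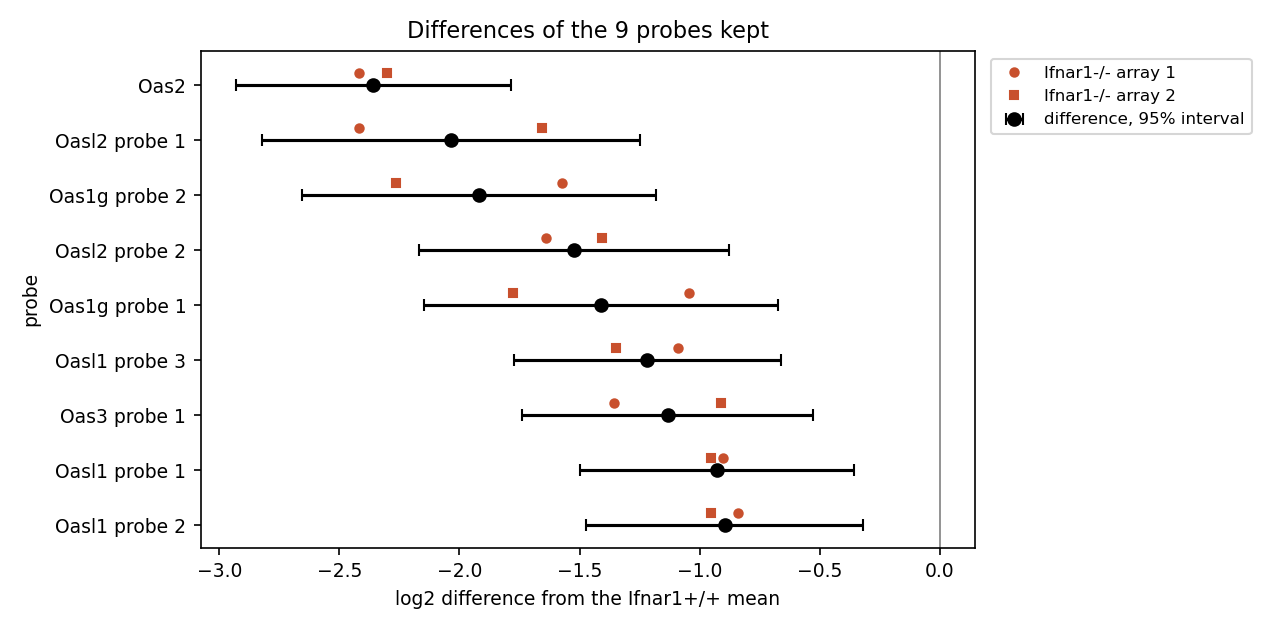
Log2 difference from the Ifnar1+/+ mean (x axis) for the 9 kept probes (y axis): black points and bars are the limma difference and its 95% interval, orange circles Ifnar1-/- array 1 and orange squares Ifnar1-/- array 2. Differences run from -0.90 (Oasl1 probe 2) to -2.36 (Oas2), and no interval reaches 0, although these intervals are not adjusted for the 11884 probes tested.

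The differences depended on how background was treated. Without background correction, Oas2 was at -0.96, Oas1g probe 2 at -0.87, Oasl2 probe 2 at -0.67, Oasl1 probe 3 at -0.46 and Oas3 probe 1 at -0.38, each over 1.5 times smaller in size. The brighter Oasl2 probe 1 was at -1.68 and Oas1g probe 1 at -1.10. Every kept family probe stayed lower in Ifnar1-/- under each of the settings in which it was tested. Of these settings, only changes of background, offset or scaling could have reversed the direction.

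The Ifnar1-/- arrays differed from each other by over 1 log2 unit in 891 kept probes, against 186 for the Ifnar1+/+ arrays. Over the 9 kept family probes the gap between the Ifnar1-/- arrays was at most 0.76, and between the Ifnar1+/+ arrays at most 0.51. Among the probes left out, Oas1a had values of 4.69 and 5.70 on the Ifnar1+/+ arrays and Oas1b probe 1 values of 5.85 and 4.91. Oas2, Oas3 probe 1 and both Oasl2 probes were lowest on Ifnar1-/- array 1, and both Oas1g probes and all Oasl1 probes on Ifnar1-/- array 2. For Oas2 and Oas3 probe 1 neither Ifnar1-/- value was above background, so their order between these arrays carries no information. The median over the 9 was -1.36 on array 1 and -1.41 on array 2, relative to the Ifnar1+/+ mean.

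Lymphocyte markers were also lower on the Ifnar1-/- arrays. Of 8 kept markers of T cells and intraepithelial lymphocytes (14 had a probe), 8 were lower in Ifnar1-/- and separated, where 19.5% of 8442 genes, each by its brightest kept probe, were. Their summed normalized intensity was 1070.4 to 1262 on the Ifnar1+/+ arrays and 345 to 590.3 on the Ifnar1-/- arrays. Cd8a, Cd2, Cd7, Gzma, Gzmb and Ptprc were not kept. Cd3d, a chain of the T cell receptor complex, was not above background on either Ifnar1-/- array, so it was kept only through the Ifnar1+/+ arrays. Relative to Ifnar1+/+, the markers had medians of -1.65 (Ifnar1-/- array 1) and -1.01 (array 2), and all 8 markers were lowest on array 1. In the family 4 of 9 probes were lowest on array 1, a count that takes in several probes of the same gene. For Cd3d, Oas2 and Oas3 probe 1 neither Ifnar1-/- value was above background, so their order between the arrays carries no information. The counts were not compared by a test. The part of lymphocyte RNA in the family's differences was not tested, and in such bulk samples fewer cells of a type and less RNA per cell cannot be told apart.

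**Figure D3:**
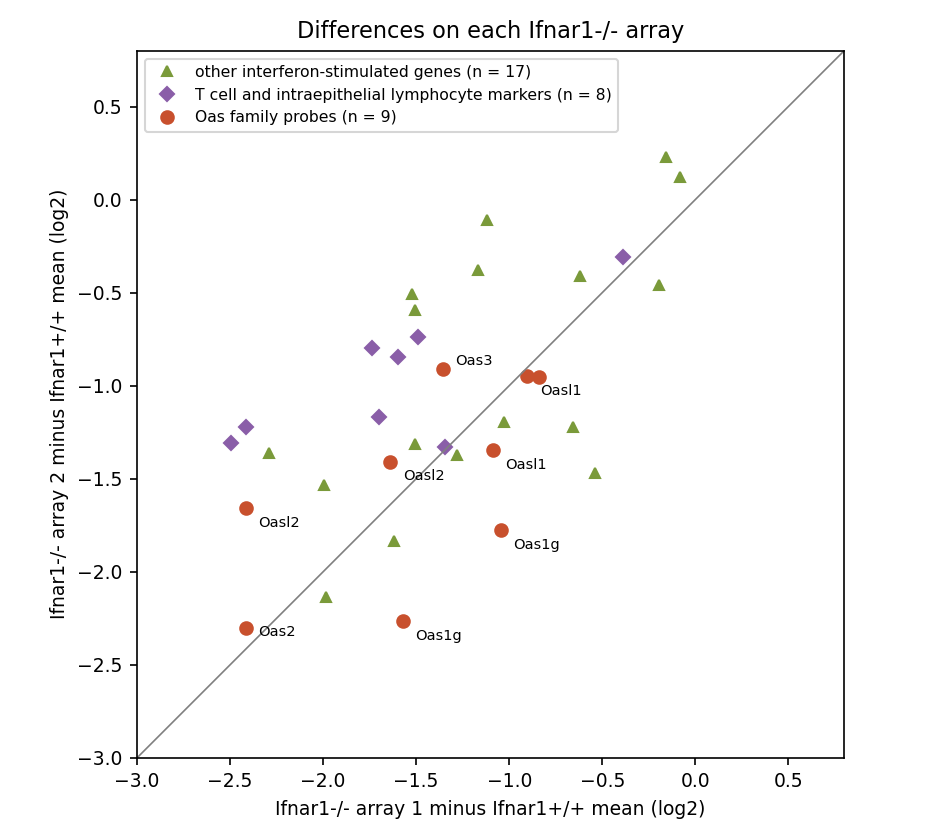
Log2 difference from the Ifnar1+/+ mean on Ifnar1-/- array 1 (x axis) and on Ifnar1-/- array 2 (y axis) for the 9 kept family probes (orange circles, labelled by gene; of the overlapping Oasl1 points 1 is labelled), 17 other interferon-stimulated genes (green triangles) and 8 T cell and intraepithelial lymphocyte markers (purple diamonds); the line marks equal values. All 8 lymphocyte markers lie above the line (lowest on array 1), and 4 family probes lie above and 5 below it. For Cd3d, Oas2 and Oas3 probe 1, not above background on either Ifnar1-/- array, the side of the line carries no information.

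Markers of other cell types had lower medians as well. Of the macrophage, dendritic cell and neutrophil markers, 11 had a probe and 3 were kept, summing to 598 to 842 in Ifnar1+/+ and 245 to 348 in Ifnar1-/-. Adgre1, Itgam, Itgax, Lyz2, Tyrobp, C1qa, C1qb and S100a8 were not kept. The 4 kept B and plasma cell markers summed to 7522 to 10697 and 6297 to 7786, while Cd79a, Ms4a1 and Jchain were not kept. Most of each sum came from Xbp1 and Cd74, whose groups overlapped, so the sums say little about the dimmer markers. Of the 4, only Cd79b was separated lower (-0.90 ± 0.23, SE). Cd79b was kept only through the Ifnar1+/+ arrays, so its separation is a description. The 7 kept fibroblast and smooth muscle markers summed to 979.9 to 3545 in Ifnar1+/+ and 647 to 930.4 in Ifnar1-/-. Of these 7, 6 had a lower mean and 5 were separated in that direction, against 19.5% of genes, with a median of -1.27. Vim, among the 5, was kept only through the Ifnar1+/+ arrays. Relative to their mean, the Ifnar1+/+ arrays themselves had medians of 0.83 (array 1) and -0.83 (array 2). For the lymphocyte markers, with a median difference of -1.30, these were 0.02 and -0.02. The part of these cell types in the family's differences was not tested either. Of the epithelial markers, all 10 with a probe, Vil1, Cdh1 and the keratin genes among them, were above background on every array, and their median difference was -0.19. They summed to 52159 to 59828 in Ifnar1+/+ and 39664 to 50236 in Ifnar1-/-. Of the 10, 2 were separated lower, against 19.5% of genes, Krt20 (-0.88 ± 0.31, SE) and Vil1 (-0.65 ± 0.24). Krt18 was separated higher (0.67 ± 0.23), and the others overlapped. The tissue is labelled colon although the protocol takes the middle of the small intestine. Of genes with a probe, 5 of 6 on the small intestine list and 3 of 5 on the colon list were kept, the latter without Slc26a3 and Hoxb13. Above background on all 4 arrays were 5 genes of the small intestine list and 2 of the colon list. Of the 5 small intestine markers 3 were separated lower in Ifnar1-/-, the peptidase gene Anpep (-1.86 ± 0.40, SE), the bile acid binding protein gene Fabp6 (-1.72 ± 0.26) and the disaccharidase gene Sis (-0.79 ± 0.27), with a list median of -0.79. The other small intestine markers kept, Apoa4 (0.69 ± 0.38) and Apoa1 (-0.38 ± 0.34), overlapped. From the colon list Ang4, an antimicrobial protein gene, was separated higher, at 1.20 ± 0.52. Its values were 10.86 and 10.79 in Ifnar1+/+ and 12.86 and 11.18 in Ifnar1-/-, so the difference came mainly from Ifnar1-/- array 1. The others kept from the colon list, Car4 (-1.35 ± 0.61) and Mptx1 (0.19 ± 0.30), overlapped, Car4 with a lower mean. Mptx1 was above background on 1 array of each group. Whether Ang4 marks colon in these samples was not tested. The part of these shifts in the family's differences was not tested.

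Beyond the family, the kept partners of 2-5A had higher means in Ifnar1-/-. Abce1, which encodes an ATP-binding protein that also acts in ribosome recycling, had a difference of 0.62 ± 0.26 (log2, SE), with values of 5.85 and 5.35 in Ifnar1+/+ and 6.14 and 6.30 in Ifnar1-/-. Pde12, whose enzyme degrades 2-5A, differed by 0.21 ± 0.31 and its groups overlapped. Neither passed the adjusted test.

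The other genes that sense or handle double-stranded RNA also had lower means. Of 8 kept, each by its brightest kept probe, 8 had a lower mean, against 47% of all genes, with a median of -0.42. In 7 the groups were separated in this direction, against 19.5% of genes. The adjusted test was passed by 0 in either direction. An unadjusted p under 0.05 in this direction was reached by 2, against 5.14% of genes. These 2 were Dhx58, a regulator of RNA helicase sensors (-1.43 ± 0.32, SE), and Tlr3, the endosomal receptor. Tlr3 was kept only through the Ifnar1+/+ arrays and was lower by at least 1.04-fold. Its p and its place in these counts are therefore a description. The helicase sensor Ddx58 differed by -0.54 ± 0.27, the kinase Eif2ak2 by -0.40 ± 0.24, the adaptor Mavs by -0.36 ± 0.24, Zbp1 by -0.44 ± 0.30, the RNA editing enzyme Adar by -0.32 ± 0.25 and the kinase activator Prkra by -0.23 ± 0.23. Of 3 kept Adar probes, 2 had a lower mean, and the value given is that of the brightest. Ifih1 was not kept.

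Of the receptor and its signalling path, 8 genes were kept, all with a lower mean (median -0.55), 5 separated, 3 with an unadjusted p under 0.05 and 0 passing the adjusted test. Over all 8442 genes, 47% had a lower mean, 19.5% were separated in that direction and 5.14% had such a p. Irf7, a transcription factor that amplifies interferon production, differed by -1.44 ± 0.50 (SE), with 8.43 on the lower of the Ifnar1+/+ arrays and 6.52 and 8.04 in Ifnar1-/-. Irf1 differed by -0.70 ± 0.28, Stat2 by -0.55 ± 0.28 and Irf9 by -0.54 ± 0.30. Ifnar2, Jak1 and Tyk2, which carry the signal at the membrane, lay within 0.11 of 0 on the log2 scale and overlapped. Ifnar1 itself was not kept.

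Of 17 other interferon-stimulated genes kept, of 26 with a probe, 15 had a lower mean and 14 were separated in that direction. The median was -1.01, 11 had an unadjusted p under 0.05, and 0 passed the adjusted test, beside 19.5% of all genes separated and 5.14% with such a p in that direction. Ifit2, which is in each of these counts of lower genes, was kept only through the Ifnar1+/+ arrays. It was lower by at least 1.73-fold, and its place in the counts is a description. The list's lowest p-values were those of Usp18, which strips Isg15 from its targets (-1.73 ± 0.26, SE; also counted in the signalling path), Parp14 (-1.76 ± 0.27) and Isg15 itself, a ubiquitin-like modifier (-2.06 ± 0.36). Ifitm3 and Irgm1 overlapped, at 0.03 ± 0.25 and 0.02 ± 0.24. For comparison, the family's median over its 5 kept genes, each by its brightest probe, was -1.41, and that over all kept probes was 0.02.

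Genes next to the family on chromosome 5 had differences near 0, except Oas1d and 2210016L21Rik. On either side of the Oas1a to Oas3 cluster 5 protein-coding genes were listed from RefSeq. The 4 that were kept included Oas1d, itself a synthetase relative, at -1.05 ± 0.43 (log2, SE), with values of 7.44 and 6.98 in Ifnar1+/+ and 5.53 and 6.80 in Ifnar1-/-. This Oas1d value was set mainly by Ifnar1-/- array 1. The others were Rita1 (-0.13 ± 0.27), the RNA helicase gene Ddx54 (0.07 ± 0.26) and Ptpn11, a phosphatase gene (0.13 ± 0.23). Beside the Oasl1 and Oasl2 pair, Tchp, Git2, Sppl3 and Acads lay between -0.14 and 0.19, and 2210016L21Rik, the gene next to Oasl1, was at 0.69 ± 0.27 by its brighter probe, while 1 of its 2 kept probes had a lower mean. The remaining relatives inside the cluster, Oas1c, Oas1e, Oas1f and Oas1h, were not kept, and Cgas, which senses DNA with a related fold, differed by -0.08 ± 0.31.

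**Figure D4:**
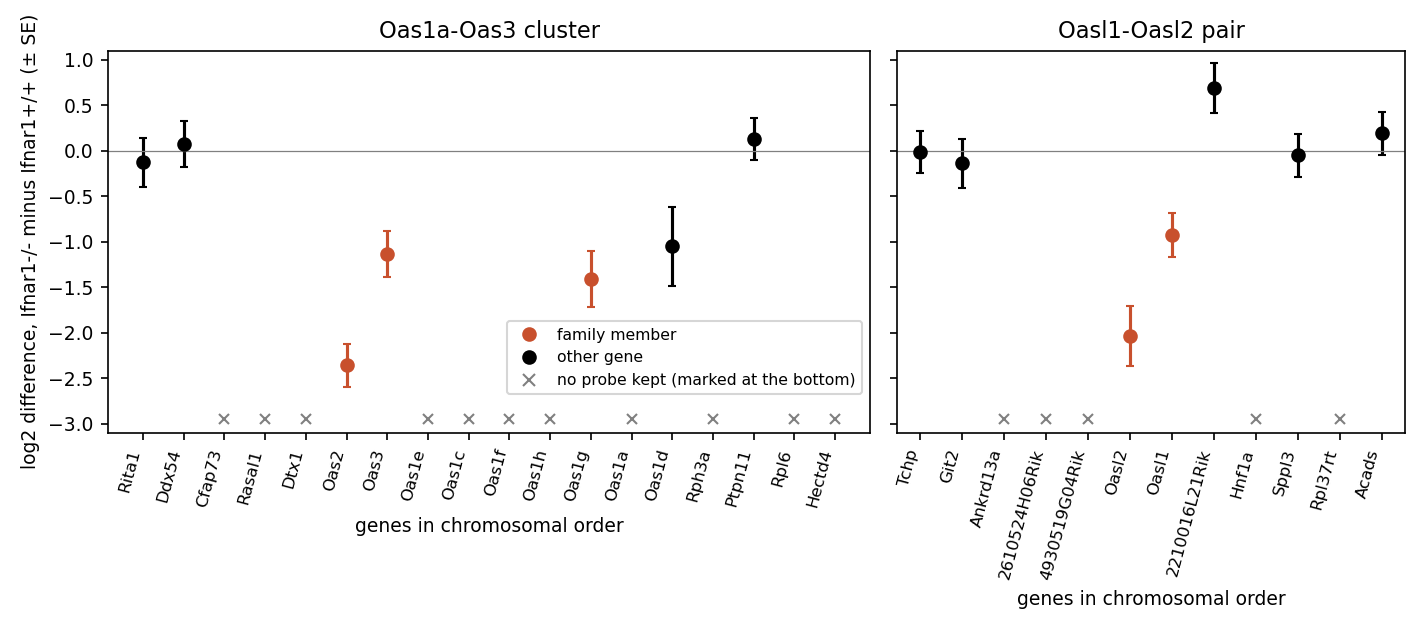
Log2 difference (y axis, ± SE) of family members (orange) and neighbouring genes (black) in their order along chromosome 5 (x axis, not to scale in bases), each by its brightest kept probe; crosses at the bottom mark genes with no kept probe and carry no value. Family members lie between -0.93 and -2.36, whereas every kept neighbour other than Oas1d lies between -0.14 and 0.69.

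Genes whose pattern over the 4 arrays was most like the mean of the 5 kept family genes were sought among 8437 others, by the Euclidean distance between log2 values centred on each gene's mean. The nearest was Dbp, a clock-controlled transcription factor (distance 0.17), followed by Clic5 (0.20), Ifit3, another interferon-stimulated gene (0.21), the amino acid transporter gene Slc36a1 (0.29) and Hdhd3 (0.30). Family genes themselves lay 0.55 to 0.79 from their own mean. The difference between the groups was -1.54 ± 0.24 (log2, SE) for Dbp, -1.44 ± 0.22 for Clic5, -1.41 ± 0.26 for Ifit3, -1.40 ± 0.27 for Slc36a1 and -1.57 ± 0.26 for Hdhd3, and none passed the adjusted test. As the 5 were picked for their likeness to the family mean, their short distances and similar differences follow from that choice.

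**Figure D5:**
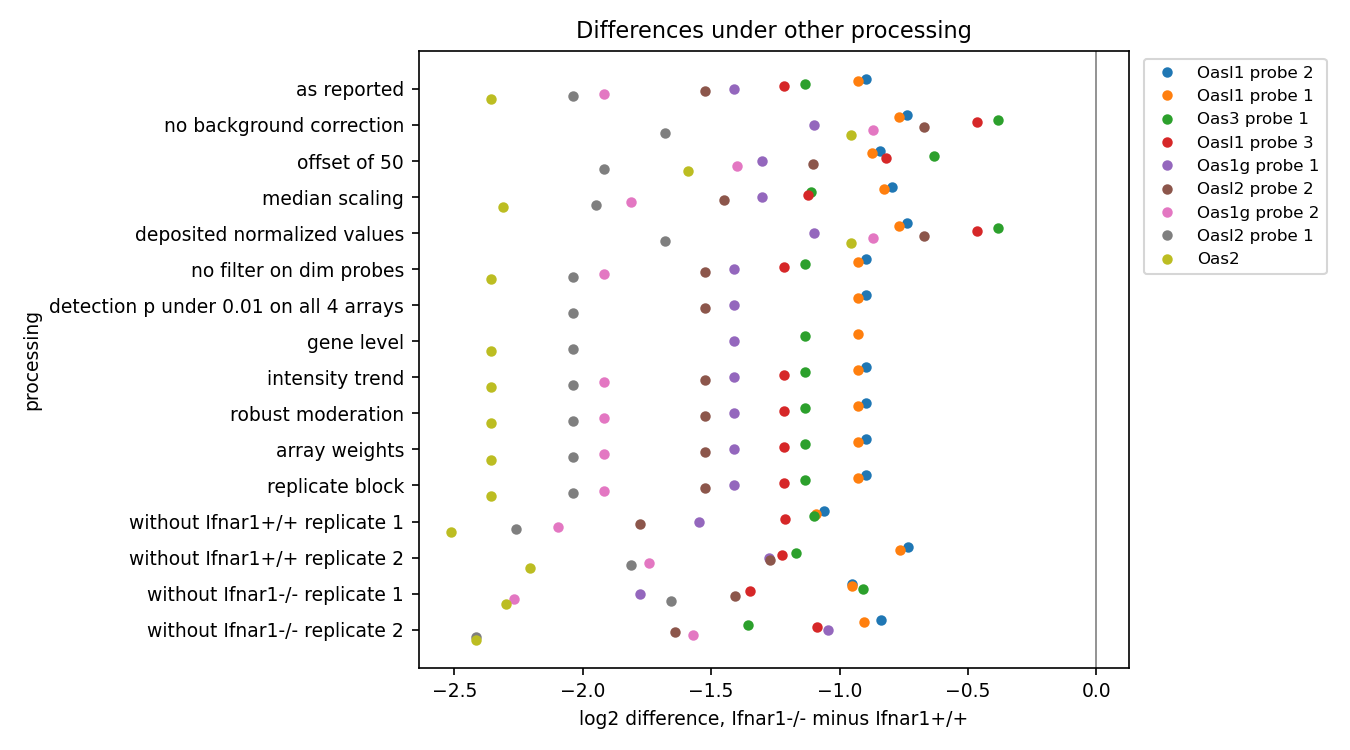
Log2 difference (x axis) of the 9 kept family probes (colours) under each way of processing (y axis), the first being the one reported; probes that a filter removes have no point. All points lie below 0, and the point nearest to 0 is Oas3 probe 1 at -0.38, without background correction and with the deposited normalized values. Points for other filters, fits or left-out arrays could not have crossed 0.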

How the data were processed

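The authors deposited raw intensity values averaged over the beads of a probe; the submitters' processing notes name GenomeStudio 1.8. Their values show no background subtraction or scaling. Beside them stand deposited detection p-values, which set a signal against negative controls. The deposited normalized intensity values, scaled in a way not given in the sources used here, served as an alternative. Symbols came from the platform annotation (23978 probes with 1, 1719 with none); a genome build for the probes was not given. Raw medians were 143.5 to 157.8, and precision is limited by having 4 arrays.

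Raw intensities went through neqc of limma 3.58.1 (R 4.3.3, statmod 1.5.0), with background from the detection p-values and an offset of 16, which shrinks dim differences. All arrays lay on 1 chip, per the column names, with position following the group. Groups came from titles and genotype labels, since the protocol gives Ifnar1+/+ for both crosses. All 4 arrays entered lmFit and eBayes without covariates (2 residual and 4.57 prior degrees of freedom), two-sided, with Benjamini-Hochberg adjustment over the 11884 kept probes. The fit was tested on simulated data. For "at least N-fold", each array's lowest signal above background (or the probe's own, if higher) stood for the dim group. Such a bound holds only for this background correction and offset. Lists used each gene's brightest kept probe. Named genes were all members and the kept genes of the pathway and neighbour lists. To these came 3 other interferon-stimulated genes of smallest p and the 5 of most like pattern. Ifitm3, Irgm1, Ifit2, Anpep, Fabp6, Sis and Ang4 were added after their values were seen. So were Apoa1, Apoa4, Car4, Mptx1, Krt18, Krt20, the Vil1 difference, Vim, Cd79b, Cd74 and Xbp1. Members and lists were chosen with earlier results of these data known. Same-numbered samples did not deviate together (r = -0.05 over probes, 2 pairs). Figures used matplotlib 3.10.9 in Python 3.11.15. Alternatives changed the background, offset, scaling, filter, probe choice, moderation, weights, threshold or block, or left out an array after normalization.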

Additional observations from a re-analysis of the deposited data

How the results depend on the processing

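Each kept family probe was lower in Ifnar1-/- under all of the 13 to 15 settings in which it was tested. Only changes of background, offset or scaling could have altered this direction. Other filters, probe choice, moderation, weights or block left each difference as it was. Leaving out an array could not reverse probes whose groups were separated, as all 9 were. The values without background correction and the deposited ones were nearly the same (Oas2 -0.96 in both). With 2 arrays per group and dim probes near background, only large differences can be told from the spread. The family median of -1.41 was -0.77 without background correction, -1.11 with an offset of 50, -0.77 with the deposited normalized values and -0.93 over all 15 probes without a filter, and with 1 array left out it ran from -1.55 to -1.27. With 1 array left out, 0 to 1 family probes passed (Oas2, adjusted p = 0.018 and 0.042 and differences of -2.51 and -2.20 without Ifnar1+/+ array 1 or 2; over the 4 such fits -2.51 to -2.20), and over all probes 0 to 16 lower and 0 to 3 higher; the lone array is then assumed to vary like the other group. Oas2 was kept only through its Ifnar1+/+ values, so this count supports nothing about the family. The replicate number as a block changed no call: 0 family probes passed with this replicate block, the smallest adjusted p being 0.094 for Oas2. Medians of the other lists moved as follows. Without background correction and with the deposited normalized values, the 2-5A partners were at 0.19 in both and the other interferon-stimulated genes at -0.53 in both. With an offset of 50 the latter were at -0.75. The neighbours of Oasl1 and Oasl2 were at 0.089 with median scaling, and with the strict filter the 2-5A partners were at 0.21, from Pde12 alone. With 1 array left out, the double-stranded RNA sensors ran from -0.63 to -0.30, the other interferon-stimulated genes -1.25 to -0.76, the receptor path -0.84 to -0.32 and the neighbours of Oasl1 and Oasl2 -0.064 to 0.11. In each case the cause was not tested.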
